A study of Homo sapiens with 8 samples.

Results

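The MYC, MAX and MXD network is a set of transcription factors that compete for the same DNA element, and its 10 genes MYC, MYCN, MYCL, MAX, MXD1, MXI1, MXD3, MXD4, MNT and MGA were followed here in MP38 uveal melanoma cells treated with inhibitors of histone deacetylases (HDACs) or of BET bromodomain proteins. The members were taken by name from the 35238 rows of the count table, not by a rule on their values. Earlier results of these data were known when the members were chosen. All 10 passed the filter on low counts that left 15085 genes for testing. MP38 is an established BAP1-mutant uveal melanoma cell line, so the values describe 1 cell line grown in wells. The control group received 0.1% DMSO, and the other groups received romidepsin at 40 nM, quisinostat at 40 nM or mivebresib at 1200 nM in medium with the same final share of DMSO, each for 24 h. Romidepsin and quisinostat are HDAC inhibitors and mivebresib is a BET inhibitor. RNA from 2 wells per group was sequenced as strand-specific mRNA libraries, 8 in all. With 2 wells of 1 line in each group, p-values measure only the spread between these wells.

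MYC proteins bind DNA as dimers with MAX at E-box elements and raise the transcription of genes for ribosome assembly, nucleotide synthesis and metabolism. The MXD proteins (MXD1, MXI1, MXD3 and MXD4), MNT and MGA also pair with MAX. MXD proteins and MNT recruit SIN3 and its histone deacetylases and lower transcription at E-boxes. MGA joins MAX in a repressive Polycomb complex called PRC1.6. The histone acetylation that HDACs remove is read by BET proteins, and MYC is a widely studied BET-dependent gene in other tumour cells. Human MYC lies on chromosome 8, whose long arm is often gained in uveal melanoma.

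Total counts per library ran from 28483235 to 29359024, so depth was much the same in all groups. The spread between replicate libraries was widest in control, with a chi-square of 58.1 per degree of freedom against 9.52 to 9.79 in the treated groups. Summed levels of 7 melanocyte markers ran from 3563 to 5452 CPM (counts scaled to effective library size) over the 8 libraries. Both values with mivebresib (3698 and 3776) and with quisinostat (3563 and 4108) lay below the 4193 and 5452 of control. In the edgeR test, 0 of 6 melanocyte markers tested were higher than control at an adjusted p below 0.05. Lower were 1 with romidepsin, 3 with quisinostat and 4 with mivebresib. SOX10 had a log2 FC of -0.39, -0.92 and -1.93 with romidepsin, quisinostat and mivebresib. The values of MITF were -0.22, -1.39 and -1.47. TYRP1 made up most of the sum, whereas DCT reached no more than 0.180 CPM. The same sum was 1.24 to 10.8 CPM for 5 fibroblast markers, with LUM at no more than 3 counts in every library, 61.3 to 83.3 CPM for 5 immune markers, with CD3E at no more than 3 counts, 0.177 to 0.764 CPM for 3 endothelial markers, with CDH5 at no more than 3 counts, and 5.93 to 20.02 CPM for 3 retinal pigment epithelium markers, with RPE65 and RLBP1 at no more than 3 counts. The fibroblast sum differed between groups, at 1.95 and 2.34 CPM in control, 5.36 and 4.13 with romidepsin, 10.8 and 8.38 with quisinostat, and 1.24 and 1.76 with mivebresib. COL1A1 carried most of it, at 1.42 and 1.64 CPM in control and 10.3 and 7.99 with quisinostat. The retinal pigment epithelium sum, nearly all BEST1, also separated the groups, at 10.0 and 12.4 CPM in control, 20.02 and 19.6 with romidepsin, 14.3 and 15.0 with quisinostat, and 5.93 and 7.59 with mivebresib. The part of these marker shifts in the results was not tested. In bulk RNA, fewer cells of a type and less RNA per cell cannot be told apart.

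CACGTG is the canonical E-box, a palindrome that reads the same on both strands and overlaps no other motif searched. Windows of 250 bases, taken as upstream of the RefSeq start on GRCh38.p14, were matched for 9 of the 10 members, all but MYC. The windows of MYCL, MAX and MXD1 lay wholly inside their GENCODE genes, so they are not upstream of those genes. CACGTG occurred in the windows of MXD4 and MNT, 2 of 9, against 6.49% of 27305 RefSeq windows of the same length. The related form CACGCG, read on both strands, was in 0 of the 9 member windows and in 9.62% of all windows. The stretches around the match in MXD4 and in MNT are shown because both are network members that carry the network's own binding element in the window and both changed with the drugs. Capitals mark the E-box, which starts 238 bases before the RefSeq start in MXD4 and 193 bases before it in MNT, and both sequences are on the minus strand, 5′ to 3′.
MXD4, chr4:2262300-2262359: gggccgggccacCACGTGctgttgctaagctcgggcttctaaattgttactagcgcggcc
MNT, chr17:2401221-2401280: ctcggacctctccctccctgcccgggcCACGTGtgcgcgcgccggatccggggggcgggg
A match of letters is a description of the sequence, and binding was not measured in these samples.

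Levels of different genes were compared as CPM per kilobase of the median GENCODE transcript length. In control cells MAX was at 124.5 ± 18.5 (SD, n = 2), MYC at 74.3 ± 0.627 and MXI1 at 46.2 ± 5.75 CPM per kilobase. MXD4 came next at 14.3 ± 1.68, followed by MNT at 7.62 ± 0.201 and MGA at 7.29 ± 1.44 CPM per kilobase. MNT and MGA did not differ beyond their spread. MXD3 was at 4.58 ± 0.617, MYCL at 2.18 ± 0.317, MXD1 at 2.07 ± 0.133 and MYCN at 1.48 ± 0.198 CPM per kilobase, and MYCL and MXD1 did not differ beyond their spread. The order depends on the transcript length used: with the longest annotated transcript MYC was at 42.9 and MAX at 29.4 CPM per kilobase, so their order turned. MXI1 was then at 11.8, below MXD4 at 14.3, and MGA at 1.78. Under either length MYC made up nearly all of the MYC family transcripts, from 91.8% to 97.8% of the summed MYC, MYCN and MYCL level per kilobase in the 8 libraries.

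**Figure D1:**
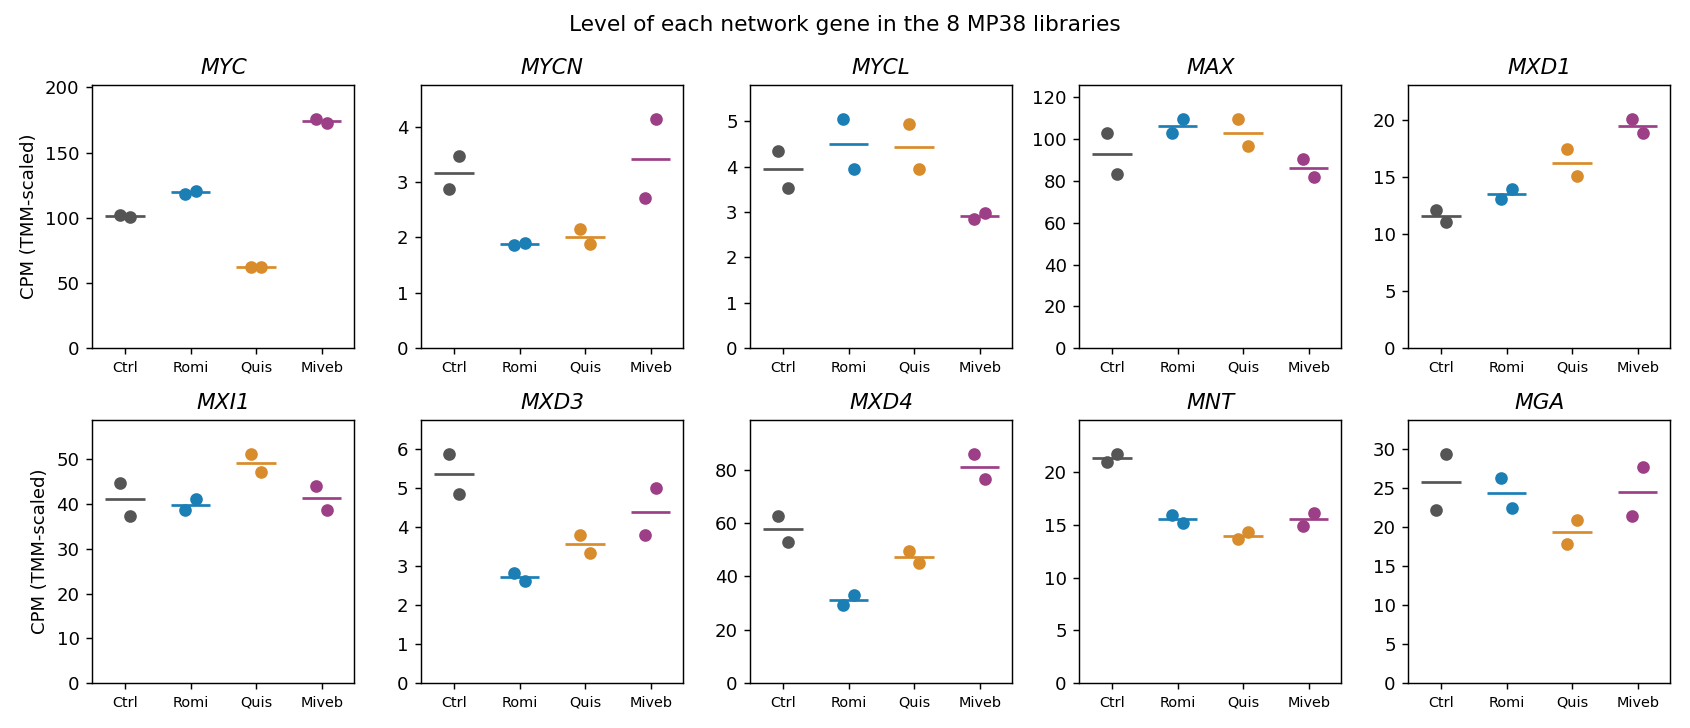
CPM (scaled by TMM factors, linear axis from 0) of each of the 10 network genes in each library of the control (Ctrl), romidepsin (Romi), quisinostat (Quis) and mivebresib (Miveb) groups; points are the 2 libraries and bars their mean. MYC ran from 61.8 CPM in quisinostat to 176 CPM in mivebresib with close replicates, while MXI1 overlapped control with romidepsin and mivebresib, and MAX with quisinostat and mivebresib.

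Against control, a member was called at a Benjamini-Hochberg adjusted p below 0.05 in the edgeR quasi-likelihood test over all 15085 genes. Romidepsin raised 1 member (MYC) and lowered 4 (MYCN, MXD3, MXD4 and MNT), where 15.2% of all genes tested were called higher and 15.8% lower. Quisinostat raised 1 member (MXD1) and lowered 4 (MYC, MYCN, MXD3 and MNT), where 28.0% of all genes were called higher and 25.1% lower. Mivebresib raised 3 members (MYC, MXD1 and MXD4) and lowered 1 (MNT), where 22.2% of all genes were called higher and 24.1% lower. With 10 genes these counts were not tested as a group, and they describe single genes. The median log2 FC of the 10 members was -0.061 with romidepsin, -0.35 with quisinostat and -0.03 with mivebresib, beside -0.012, -0.0036 and 0.0067 over all genes tested. By edgeR, 0 members passed the study's added threshold of a log2 FC beyond 1.5 with any drug, which 4.08% of all genes passed under romidepsin, 12.2% under quisinostat and 8.32% under mivebresib. In the same order, 5, 8 and 4 members had an unadjusted p under 0.05, and DESeq2 and limma-voom also placed 0 members beyond 1.5. The 3 comparisons share their control libraries. The fit also shares its estimate of the spread over all 4 groups, although control spread the widest. With only the 4 libraries compared, the edgeR adjusted p was 0.00279 for MYC with quisinostat and 0.00254 with mivebresib. With romidepsin it was 0.0135 for MXD4 and 0.0433 for MNT, and MYC and MYCN lost their calls (0.113 and 0.0605). The other member calls against control were kept.

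**Figure D2:**
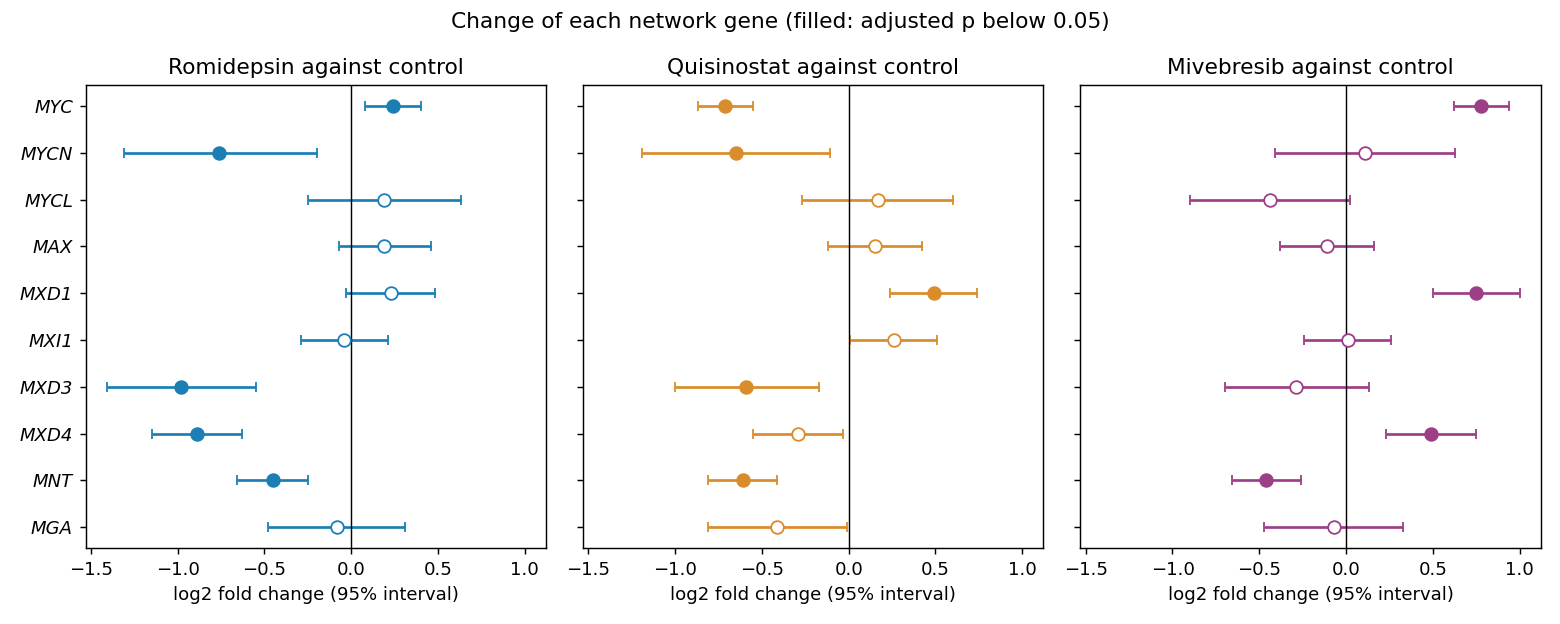
log2 fold change of each network gene against control for each drug, with 95% intervals from the edgeR quasi-likelihood fit; filled points have an adjusted p below 0.05. MYC stands at 0.24, -0.71 and 0.78 from left to right, and MNT lies to the left of 0 with all 3 drugs.

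MYC, the family member that drives proliferation in many tumours, lies at chr8:127735434-127741434 on the plus strand (GRCh38, GENCODE 29; ENSG00000136997). It was at 102 and 101 CPM in the control libraries, 118 and 121 with romidepsin, 62.0 and 61.8 with quisinostat, and 176 and 173 with mivebresib. No group overlapped another, and each pair of libraries lay within 3 CPM or less of each other. MYC fell by 0.71 on the log2 scale with quisinostat (SE 0.071, adjusted p = 7.39e-05), to 61.9 ± 0.125 CPM from 101 ± 0.855. With mivebresib it rose by 0.78 (SE 0.0704, adjusted p = 5.63e-05), a 1.72-fold rise. The change with romidepsin was smaller, a log2 FC of 0.24 (SE 0.0702, adjusted p = 0.0343), and this call was lost when any library of a drug group was left out, with adjusted p from 0.0604 to 0.168. The median gene moved by 0.20 on the log2 scale with quisinostat when libraries were scaled by their size alone, in place of TMM factors, and MYC then still fell with quisinostat, by 0.51 (adjusted p = 0.000452).

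MYCN, the paralogue known from neuroblastoma, was a low-level gene here, with 54 to 115 counts per library. Its CPM was 2.87 and 3.47 in control, 1.85 and 1.89 with romidepsin, 2.15 and 1.88 with quisinostat, and 2.71 and 4.14 with mivebresib. Both HDAC inhibitor groups lay below both control libraries, and the mivebresib libraries spanned the control values. MYCN fell by 0.76 with romidepsin (SE 0.242, adjusted p = 0.0449) and by 0.65 with quisinostat (SE 0.238, adjusted p = 0.0462). DESeq2 made neither call, with adjusted p of 0.0819 for romidepsin and 0.0921 for quisinostat, and neither did limma-voom (0.0545 and 0.0518) or the fits under library size alone or upper-quartile factors. Both calls were also lost without control replicate 2 or any romidepsin or quisinostat library, with adjusted p from 0.078 to 0.173 for romidepsin and from 0.0632 to 0.189 for quisinostat. With mivebresib the log2 FC was 0.11 (95% interval -0.41 to 0.63). MYCL, first known from small cell lung cancer, was at 4.36 and 3.54 CPM in control, 5.05 and 3.96 with romidepsin, 4.94 and 3.95 with quisinostat, and 2.85 and 2.99 with mivebresib. Only the mivebresib libraries lay apart from control, below it, and no comparison of MYCL with control passed the test; the mivebresib log2 FC was -0.44 (95% interval -0.90 to 0.02, adjusted p = 0.109).

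MAX, the shared partner of the other members, was at 103 and 83.1 CPM in control and 103 and 109.5 with romidepsin. It was at 109.4 and 96.6 with quisinostat and 90.5 and 81.9 with mivebresib. The control libraries alone spanned most of that range. No drug changed MAX past the threshold: the log2 FC was 0.19 with romidepsin (95% interval -0.07 to 0.46), 0.15 with quisinostat (-0.12 to 0.42) and -0.11 with mivebresib (-0.38 to 0.16). Without control replicate 1 the test called MAX higher under romidepsin, at a log2 FC of 0.38 (adjusted p = 0.0166), and under quisinostat, at 0.31 (adjusted p = 0.0242). MAX, at chr14:65006174-65102695, shares 56479 bases with FNTB on the opposite strand, a farnesyltransferase subunit gene that fell by 0.75, 1.18 and 1.43 on the log2 scale with romidepsin, quisinostat and mivebresib. Whether the counting used strand is not given in the sources used here, so the part of FNTB reads in the MAX counts was not tested.

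MXD1, a repressor usually induced as cells stop dividing and differentiate, was at 12.1 and 11.0 CPM in control, 13.1 and 13.9 with romidepsin, 17.5 and 15.1 with quisinostat, and 20.1 and 18.8 with mivebresib. Every treated library lay above both control libraries. MXD1 rose by 0.49 on the log2 scale with quisinostat (SE 0.109, adjusted p = 0.0053) and by 0.75 with mivebresib (SE 0.109, adjusted p = 0.000703), which is 1.41-fold and 1.68-fold. The romidepsin log2 FC was 0.23 (95% interval -0.03 to 0.48, adjusted p = 0.154). MXD1, at chr2:69897688-69942945, shares 7888 bases of the same strand with SNRNP27, a splicing factor gene whose log2 FC was -0.1, -0.084 and 0.041 with romidepsin, quisinostat and mivebresib, none of them called.

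MXD4, another repressor of the MXD group, moved in opposite directions with romidepsin and mivebresib. It was at 62.7 and 53.1 CPM in control, 29.4 and 33.2 with romidepsin, 49.5 and 45.2 with quisinostat, and 86.1 and 76.5 with mivebresib. No group overlapped another. MXD4 fell by 0.89 on the log2 scale with romidepsin (SE 0.115, adjusted p = 0.000904), to 31.3 ± 2.69 CPM from 57.9 ± 6.83. It rose by 0.49 with mivebresib (SE 0.112, adjusted p = 0.00725), a call that was lost without mivebresib replicate 1 (log2 FC 0.40, adjusted p = 0.0626). The quisinostat value of -0.29 (95% interval -0.55 to -0.03) did not pass after adjustment (adjusted p = 0.0576), and it passed without control replicate 2 (log2 FC -0.41, adjusted p = 0.00687). MXD4, whose E-box window is shown above, lies at chr4:2247432-2262294.

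MXD3, an MXD protein known for its expression in cycling cells, was at 5.88 and 4.86 CPM in control, 2.82 and 2.62 with romidepsin, 3.80 and 3.34 with quisinostat, and 3.80 and 5.00 with mivebresib. Romidepsin and quisinostat lay below both control libraries, and mivebresib overlapped control. With romidepsin MXD3 fell by 0.98 on the log2 scale (SE 0.189, adjusted p = 0.00563), the largest change of any member against control. With quisinostat it fell by 0.59 (SE 0.182, adjusted p = 0.0241), which DESeq2 did not call (adjusted p = 0.0513). Nor did edgeR under library size alone (log2 FC -0.39, adjusted p = 0.121) or upper-quartile factors (-0.46, adjusted p = 0.069). The call was also lost without control replicate 1 or either quisinostat library (log2 FC from -0.67 to -0.45). The mivebresib log2 FC was -0.29 (95% interval -0.70 to 0.13). MXD3, at chr5:177301461-177312757, overlaps RAB24 on the same strand (2284 bases) and PRELID1 on the other (3186 bases). RAB24, a small GTPase gene, rose by 0.43 with quisinostat (adjusted p = 0.0105) and was called with neither other drug. PRELID1, at a mean of 230.5 CPM in control, had a log2 FC of -0.27, -0.42 and -0.30 with romidepsin, quisinostat and mivebresib, none of them called. How far reads of these genes entered the MXD1 and MXD3 counts was not tested.

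MXI1, the fourth MXD gene and long studied as a candidate tumour suppressor, was at 44.7 and 37.4 CPM in control, 38.7 and 41.1 with romidepsin, 51.2 and 47.1 with quisinostat, and 44.0 and 38.7 with mivebresib. The quisinostat libraries were the highest, and the others overlapped control. No comparison with control passed the test: the log2 FC was -0.041 with romidepsin (95% interval -0.29 to 0.21), 0.26 with quisinostat (0.01 to 0.51, adjusted p = 0.0749) and 0.0099 with mivebresib (-0.24 to 0.26). With quisinostat MXI1 passed when libraries were scaled by size alone (log2 FC 0.46, adjusted p = 0.0082) and without control replicate 1 (0.39, adjusted p = 0.0083).

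MNT, a widely expressed repressor that pairs with MAX in resting and dividing cells alike, was at 20.9 and 21.7 CPM in control, 15.9 and 15.2 with romidepsin, 13.7 and 14.3 with quisinostat, and 14.9 and 16.1 with mivebresib. All 6 treated libraries lay below both control libraries. MNT fell by 0.45 on the log2 scale with romidepsin (SE 0.0888, adjusted p = 0.00609), by 0.61 with quisinostat (SE 0.089, adjusted p = 0.000588) and by 0.46 with mivebresib (SE 0.0891, adjusted p = 0.00322). It was the only member called in the same direction with all 3 drugs, and the romidepsin call was lost without romidepsin replicate 2 (adjusted p = 0.0535). MNT lies at chr17:2384060-2401118, and its E-box window is the second sequence shown above.

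MGA, the scaffold protein that ties MAX to PRC1.6, was at 22.2 and 29.4 CPM in control, 26.3 and 22.4 with romidepsin, 17.8 and 20.9 with quisinostat, and 21.4 and 27.7 with mivebresib. Only the quisinostat libraries lay below both control libraries. The log2 FC was -0.081 with romidepsin (95% interval -0.48 to 0.31), -0.41 with quisinostat (-0.81 to -0.01, adjusted p = 0.0761) and -0.07 with mivebresib (-0.47 to 0.33). Without control replicate 1 the quisinostat value was -0.60 (adjusted p = 0.00819).

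The drugs were also compared with each other, at the same dose only for romidepsin and quisinostat, both 40 nM for 24 h. Equal doses need not be equal in effect, since the study lists a lower IC50 for romidepsin than for quisinostat in MP38 cells. Drug and effective dose cannot be told apart here. Quisinostat against romidepsin called 1 member higher and 1 lower, where 21.0% of all genes were called higher and 14.6% lower. The lower member was MYC, by 0.95 on the log2 scale (SE 0.0711, adjusted p = 8.68e-05), a larger difference than either HDAC inhibitor showed against control. The higher member was MXD4 (log2 FC 0.60, SE 0.114, adjusted p = 0.00474), a call that was lost without romidepsin replicate 1 (log2 FC 0.51, adjusted p = 0.0525). For the other 8 members the test did not pass. Among these the interval was -0.31 to 0.22 for MAX, -0.36 to 0.05 for MNT and -0.05 to 0.84 for MXD3.

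Mivebresib was given at 1200 nM, a different dose from either HDAC inhibitor, so those comparisons set the conditions side by side. Against romidepsin it called 5 members higher (MYC, MYCN, MXD1, MXD3 and MXD4) and 1 lower (MYCL), with 23.7% of all genes called higher and 25.2% lower. MXD4 showed the largest of these differences, a log2 FC of 1.38 (SE 0.115, adjusted p = 3.4e-05), and MYC a log2 FC of 0.54 (adjusted p = 0.000337). Leaving out mivebresib replicate 2, romidepsin replicate 1 or romidepsin replicate 2 left 3 members higher, since MYCN (adjusted p from 0.0688 to 0.122) and MXD3 (0.0569 to 0.114) then lost their calls. The MYCL call was lost without either mivebresib library or romidepsin replicate 1 (adjusted p from 0.0924 to 0.182) and under DESeq2 (adjusted p = 0.0513). Against quisinostat it called 3 members higher (MYC, MYCN and MXD4) and 1 lower (MYCL), with 26.2% of all genes called higher and 31.5% lower. The MYCN call (log2 FC 0.76, adjusted p = 0.0223) was lost without either quisinostat library or mivebresib replicate 2 (adjusted p from 0.0618 to 0.17) and under library size alone (adjusted p = 0.0668). The MYCL call (log2 FC -0.61, adjusted p = 0.0275) was lost without quisinostat replicate 1 or either mivebresib library (adjusted p from 0.0868 to 0.174) and under DESeq2 (adjusted p = 0.065). The MYC difference was 1.49 on the log2 scale (SE 0.0717, 95% interval 1.33 to 1.66, adjusted p = 1.71e-06), the largest in the network. It lay beyond 1.5 under DESeq2, with only the 4 libraries compared, and without quisinostat replicate 2 or mivebresib replicate 2, at 1.502 to 1.509, and it was 1.5 with no filter on low counts. MXD4 was 0.78 higher than with quisinostat (adjusted p = 0.00046).

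The level of MYC was also set against the summed level of the 4 MXD genes, since their proteins compete for MAX. Per kilobase of median transcript length, the ratio of MYC to the sum of MXD1, MXI1, MXD3 and MXD4 was 1.03 and 1.2 in control, 1.56 and 1.49 with romidepsin, 0.596 and 0.65 with quisinostat, and 1.66 and 1.81 with mivebresib. The quisinostat libraries were the lowest and the romidepsin and mivebresib libraries lay above control. The MXD sum was 55.5 and 59.2 CPM per kilobase with romidepsin, below the 72.9 and 61.3 of control, while with mivebresib it was 77.5 and 70.1, overlapping control. With the longest transcripts the mivebresib sum was 39.2 and 35.6, above the 33.1 and 28.0 of control. MXD4 made up 21.2% and 21.3% of the MXD sum in control, 13.1% and 13.8% with romidepsin, 16.0% in both quisinostat libraries and 27.4% and 26.9% with mivebresib. These shares depend on the length used: with the longest transcripts they were 46.7% in both control libraries, 33.0% and 34.6% with romidepsin, 38.4% and 38.6% with quisinostat, and 54.2% and 53.0% with mivebresib. With the longest transcripts the ratio was 1.3 and 1.52 in control, 2.28 and 2.15 with romidepsin, 0.825 and 0.905 with quisinostat, and 1.89 and 2.05 with mivebresib, so romidepsin, not mivebresib, then had the highest ratio. RNA levels do not give protein levels, which were not measured here for this network.

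**Figure D3:**
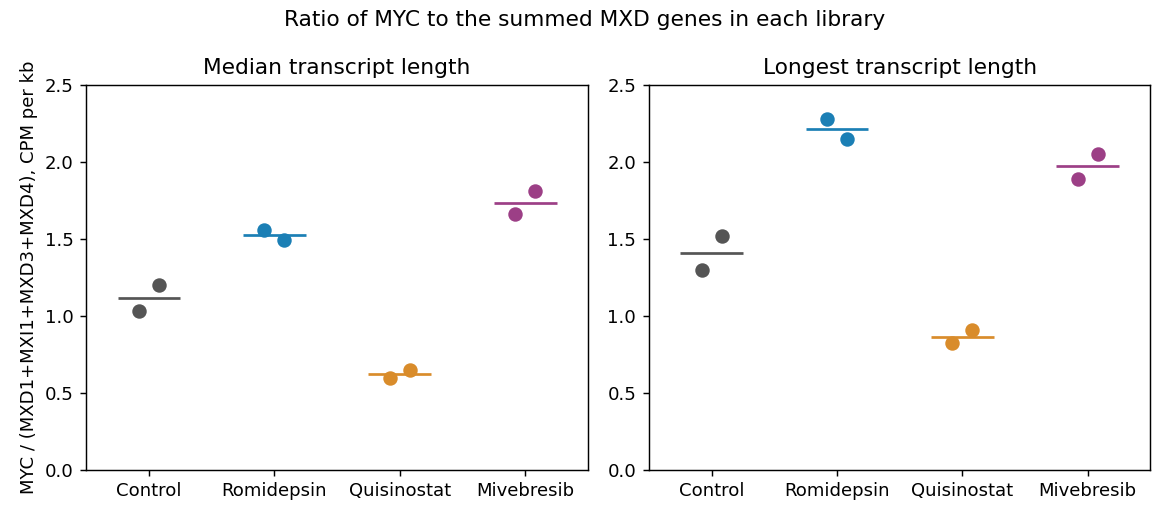
Ratio of MYC to the sum of MXD1, MXI1, MXD3 and MXD4 in each library, each gene as CPM per kilobase of its median (left) or longest (right) GENCODE transcript; points are libraries and bars means, on linear axes from 0. Quisinostat lies lowest at 0.596 and 0.65 on the left, and romidepsin and mivebresib lie above control in both panels.

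Genes around the network were then counted from 11 lists, which hold 138 tested genes that are no network member. Of all genes tested, 15.2% were called higher and 15.8% lower with romidepsin, and 28.0% and 25.1% with quisinostat. With mivebresib the shares were 22.2% and 24.1%. No list was tested as a set, and a count near these shares shows nothing particular to its list. Known MYC targets of ribosome biogenesis were mostly lower with quisinostat: 18 of 28 fell and 2 rose, with a median log2 FC of -0.57, while 8 fell and 1 rose with romidepsin (median -0.12), and 7 fell and 6 rose with mivebresib (median -0.03). The quisinostat count ran from 18 to 20 over the leave-one-out fits, whereas the romidepsin count dropped to 1 without romidepsin replicate 1 and to 3 without replicate 2, and the mivebresib counts to 2 lower and 3 higher genes without mivebresib replicate 2. NCL, nucleolin, fell by 0.46 with romidepsin and 1.09 with quisinostat and rose by 0.35 with mivebresib (adjusted p = 0.0082, 4e-05 and 0.0174). NPM1, nucleophosmin, fell by 0.37 and 0.90 with the HDAC inhibitors (adjusted p = 0.0194 and 0.000101), and its mivebresib log2 FC was 0.16 (adjusted p = 0.193). BOP1, a pre-ribosome factor, fell by 0.50 with quisinostat and rose by 0.67 with mivebresib (adjusted p = 0.0011 and 0.000271). TCOF1, which supports ribosomal RNA transcription, fell with every drug, by 0.54, 1.29 and 0.51 with romidepsin, quisinostat and mivebresib.

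Metabolic MYC targets fell in 14 of 20 cases with quisinostat, where 1 rose (median log2 FC -0.44); with romidepsin 5 fell and 2 rose, and with mivebresib 7 fell and 5 rose. With library size alone the quisinostat count was 9. The romidepsin count was 1 when any 1 romidepsin or quisinostat library was left out, the mivebresib count of lower genes was 4 when any 1 mivebresib or quisinostat library was left out, and 9 rose with mivebresib without control replicate 2. CAD, which opens pyrimidine synthesis, fell by 0.42 with romidepsin and 0.99 with quisinostat (adjusted p = 0.0388 and 0.000322), and its mivebresib log2 FC was -0.021. LDHA, lactate dehydrogenase A, fell by 0.64 with quisinostat (adjusted p = 0.00111). ODC1, the first enzyme of polyamine synthesis and a classical MYC target, rose by 0.95 with mivebresib (adjusted p = 0.000443), to 278 from 144 CPM, and was not called with the HDAC inhibitors (-0.072 and -0.069). SRM, the next enzyme of that pathway, fell with all 3 drugs, by 0.59, 0.97 and 0.53.

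Growth and translation targets fell in 8 of 11 tested cases with quisinostat, 6 with romidepsin and 4 with mivebresib, and 1, 1 and 3 rose; the quisinostat count was 5 without quisinostat replicate 2 or with library size alone, and the romidepsin count 3 without romidepsin replicate 1. CDK4, the G1 kinase, fell by 0.58, 1.03 and 0.60 with romidepsin, quisinostat and mivebresib. E2F2, a cell cycle transcription factor, fell by 1.29, 1.85 and 2.60. CCND2, a D-type cyclin, rose by 0.59, 1.08 and 0.36. TERT did not pass the filter on low counts. Of 8 genes that MYC is known to repress, 2 rose and 1 fell with romidepsin, and 3 rose and 2 fell with quisinostat. With mivebresib 2 rose and 3 fell. All these counts were near the shares of all genes. CDKN2B, an inhibitor of CDK4, rose by 0.69, 0.79 and 1.11 (adjusted p = 0.00267, 0.000481 and 9.95e-05). CDKN1A, the p21 gene, fell by 0.45 with quisinostat and was not called with the others, and CDKN1B, the p27 gene, rose by 0.26 with quisinostat and was called with neither other drug. GADD45A, a stress response gene, rose by 0.35 with romidepsin and 1.70 with mivebresib (adjusted p = 0.0291 and 7.89e-06). THBS1, a secreted matrix protein, fell by 3.70 with mivebresib, to 2.36 from 30.8 CPM, and its value was 0.076 with romidepsin and 0.046 with quisinostat.

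Among 17 MYC cofactors, 8 fell with romidepsin, 11 fell and 1 rose with quisinostat, and 3 fell and 2 rose with mivebresib, and neither rise with mivebresib was called when any 1 treated library was left out. HCFC1, a chromatin scaffold that binds MYC, fell by 1.24 and 1.23 with romidepsin and quisinostat (adjusted p = 0.000142 and 3.26e-05), to 58.3 and 58.9 from 138 CPM, and its mivebresib log2 FC was -0.21 (adjusted p = 0.131). SMARCB1, a SWI/SNF subunit, fell by 1.19 and 1.36, and KAT2A, an acetyltransferase, fell with all 3 drugs by 0.73, 0.87 and 0.93. WDR5, which helps MYC reach chromatin, fell by 0.54 and 0.68 with the HDAC inhibitors. TRRAP and ZBTB17, the latter also called MIZ1, were not called with any drug.

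In the SIN3-HDAC complex, through which MXD and MNT act, 2 of 18 rose and 3 fell with romidepsin. With quisinostat 2 rose and 2 fell, and with mivebresib 4 rose and 3 fell. The romidepsin and mivebresib counts were near the shares of all genes, and the quisinostat counts were below them. With library size alone 9 rose with quisinostat, and the romidepsin count of lower genes depended on which library was left out. HDAC1 and HDAC2, enzymes that the HDAC inhibitors target, were called with no drug, with log2 FC from -0.17 to 0.079. SIN3A rose by 0.49 with mivebresib, and SIN3B rose by 0.37 with romidepsin and 0.31 with mivebresib. RBBP4, a histone-binding subunit, fell by 0.41 and 0.72 with the HDAC inhibitors. In PRC1.6, the complex of MGA, 4 of 13 fell and 2 rose with romidepsin, and 8 fell and 1 rose with quisinostat. With mivebresib 3 fell and 2 rose, near the shares of all genes. The romidepsin count of lower genes was larger without control replicate 2. L3MBTL2 fell with all 3 drugs, by 0.67, 0.63 and 0.85; PCGF6 fell by 0.62 and 0.66 with quisinostat and mivebresib; E2F6 fell by 0.59 with quisinostat. TFDP2, a dimer partner of E2F factors, rose with all 3, by 0.97, 1.26 and 0.55. Its paralogue TFDP1, on the same list, fell with all 3, with a log2 FC of -0.61, -0.92 and -0.39. In control TFDP1 was at 57.7 CPM and TFDP2 at 12.2. Of 12 germline genes that PRC1.6 is known to silence, 4 passed the filter on low counts. Of these, 1 rose and 1 fell with romidepsin, 1 fell with quisinostat and 2 rose with mivebresib. SYCP3, a meiotic chromosome gene, was at 0.180 CPM in control and 0.619, 0.461 and 0.526 with the drugs. These values rest on 4 to 22 counts per library, and the quisinostat change was not called. ZCWPW1, at 7 to 33 counts per library, fell with romidepsin and quisinostat (log2 FC -1.38 and -1.78). Its mivebresib log2 FC was 0.11.

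Among 11 genes that set MYC protein stability, 4 fell and 2 rose with romidepsin, 6 fell and 2 rose with quisinostat, and 2 fell and 2 rose with mivebresib. FBXW7, the ubiquitin ligase subunit that marks MYC for degradation, rose by 0.54 and 0.55 with romidepsin and quisinostat (adjusted p = 0.00814 and 0.00373), and its mivebresib log2 FC was 0.20 (adjusted p = 0.193). AURKA and PLK1, mitotic kinases reported to stabilise MYC family proteins, fell with all 3 drugs, AURKA by 0.89, 1.11 and 1.68 and PLK1 by 0.87, 1.44 and 1.17. In the MLX branch, the sister network that senses glucose, 2 of 5 rose with romidepsin, 3 rose and 2 fell with quisinostat, and 3 rose and 1 fell with mivebresib. TXNIP, its best known target, rose by 0.39, 0.47 and 1.73 (adjusted p = 0.0056, 0.000985 and 2.31e-06), and its relative ARRDC4 rose by 0.50, 0.95 and 0.76. MLX itself fell by 0.67 with quisinostat and 0.86 with mivebresib, and MLXIP, also called MondoA, fell by 0.55 with quisinostat. Of 10 neighbours of MYC and MYCN, 4 had a row. FAM84B (now LRATD2), beside MYC, rose by 0.72 with quisinostat and fell by 0.86 with mivebresib (adjusted p = 0.000192 and 0.000113). These were the opposite signs of MYC with the same drugs. With romidepsin the log2 FC of FAM84B was 0.25 (adjusted p = 0.0565), the same sign as MYC. PVT1 and MYCNOS were not analysed here.

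**Figure D4:**
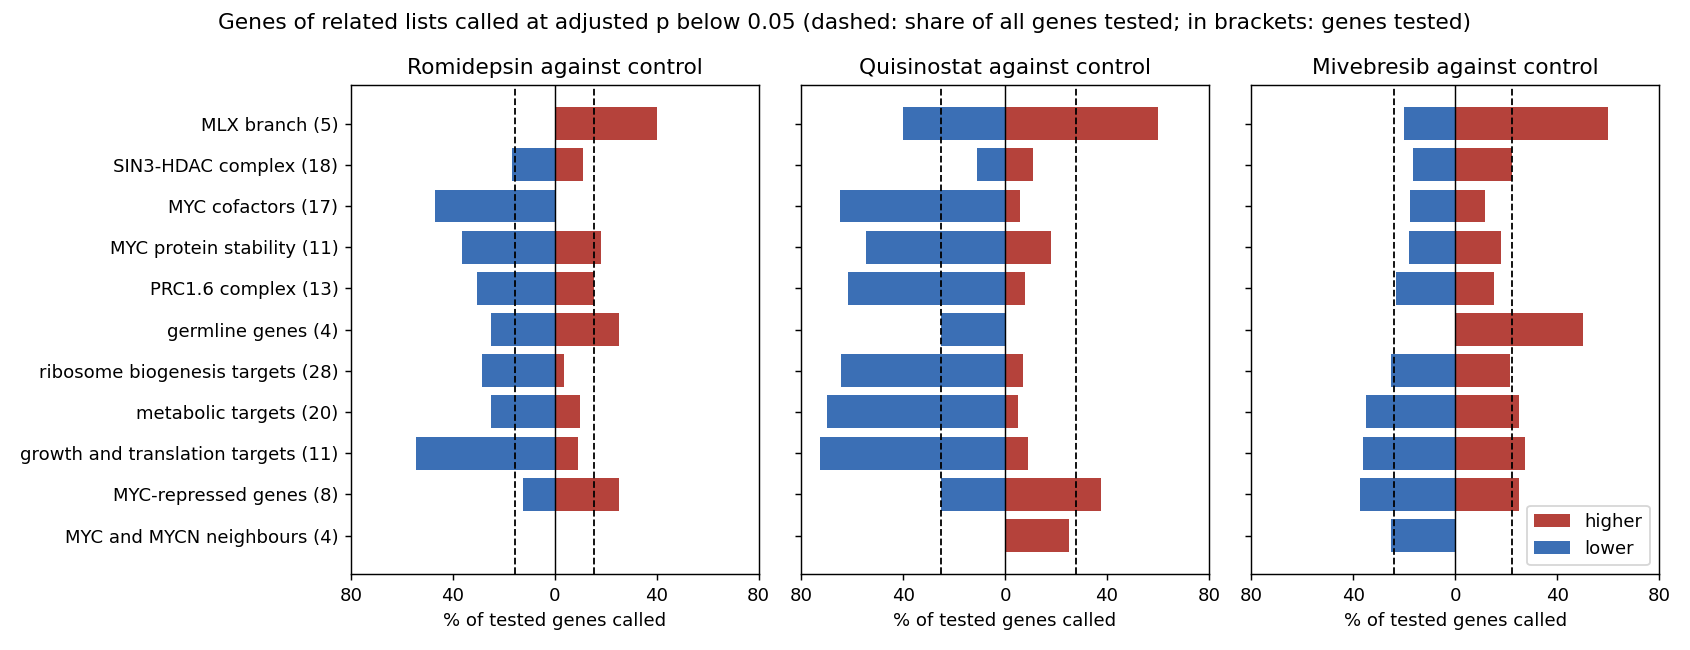
Share of the tested genes of each related list (number tested in brackets) that was called higher (right, red) or lower (left, blue) at an adjusted p below 0.05 with each drug; dashed lines give the same share over all 15085 genes. With quisinostat, 18 of 28 ribosome biogenesis targets and 14 of 20 metabolic targets lie on the lower side, where 25.1% of all genes were called.

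The genes whose levels followed MYC most closely over the 8 libraries were CLIC4, NCDN and THAP12, with Pearson r of log2 CPM of 0.9954, 0.9934 and 0.9926 among 9839 genes compared. Their changes were smaller than that of MYC: CLIC4 had a log2 FC of 0.07, -0.37 and 0.33 with romidepsin, quisinostat and mivebresib. For MXD3, the other member picked by the size of its change, the closest were SH3BP2, TRIM39 and ZFYVE19, with r of 0.9585, 0.9560 and 0.9469. The 8 points come from 4 groups of 2 libraries, the genes share these libraries, and no test was made.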

How the data were processed

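RNA was sequenced from 8 wells of MP38 cells, grouped by the sample titles. The authors deposited raw counts per gene symbol made with BioJupies; the submitters' processing notes name hg38, and the aligner and annotation are not given in the sources used here. The authors' log10 values equal log10(CPM + 1) of these counts, and the deposited quantile-normalized score has an unnamed scale, so it served for calls only. For the counts (28483235 to 29359024 per library), the quasi-likelihood test of edgeR (version 4.0.16; R version 4.3.3) was fitted to all 8 libraries at once after filterByExpr and TMM scaling, with Benjamini-Hochberg adjustment over 15085 genes. log2 CPM used a prior count of 2. Intervals are 95% intervals of that fit. The fits were also run on simulated counts, with the same spread in every group and known changes in the romidepsin group only. The control libraries here had a wider spread than the treated groups, so that run cannot vouch for these fits. The members and lists were chosen with earlier results of these data known. Named beside the members were, per list and drug, the highest and lowest called genes, and regulators listed whatever their values. The 3 genes most like MYC and MXD3 and genes overlapping a member were also named. A part of all these genes is printed. Alternatives were DESeq2 1.42.0, limma-voom (limma 3.58.1), other scalings and filters, 4-library fits, a replicate block, each library left out, and limma on the quantile-normalized table. Positions and lengths came from GENCODE 29 on GRCh38, and promoters from RefSeq.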

Additional observations from a re-analysis of the deposited data

How the results depend on the processing

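With 2 wells a group, the SE with romidepsin was 0.242 for MYCN at 54 to 115 counts per library and 0.0702 for MYC. MYC with quisinostat and mivebresib, MXD1 and MNT with both of these drugs, and MXD3 and MXD4 with romidepsin kept their direction and call in every count-based fit that tested them. Members called higher and lower were 1 and 4 with romidepsin, 1 and 4 with quisinostat and 3 and 1 with mivebresib. With romidepsin 0 were higher with no filter on low counts or with only the 4 libraries compared, and 2 were lower at a mean CPM of at least 5, where MYCN and MXD3 were not tested. With quisinostat 3 were higher under library size alone and 2 under upper-quartile factors or a mean CPM of at least 5, and 2 were lower under DESeq2 and each of these 3 settings. On the quantile-normalized table the counts higher and lower were 0 and 0 with romidepsin. They were 0 and 2 with quisinostat (MYCN and MXD3) and 1 and 0 with mivebresib (MYC). MYC with quisinostat, MXD1 and MNT with quisinostat or mivebresib, and MXD3 and MXD4 with romidepsin were not called on that table. Requiring a log2 FC beyond 1.5 as well left 0 in every comparison in the edgeR fit to all 8 libraries, while MYC for mivebresib against quisinostat passed it in some refits.

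Quisinostat against romidepsin called 1 higher and 1 lower; the higher count was 3 under library size alone and upper-quartile factors, 2 at a mean CPM of at least 5 and with 4 libraries, and 0 on the quantile-normalized table, and the lower count was 2 with 4 libraries. Mivebresib against romidepsin called 5 higher and 1 lower; the higher count was 3 at a mean CPM of at least 5 and 1 on the quantile-normalized table, and the lower count was 2 under library size alone, upper-quartile factors and 4 libraries and 0 on that table. Mivebresib against quisinostat called 3 higher and 1 lower; the higher count was 5 with 4 libraries, and the lower count was 3 under library size alone, upper-quartile factors and 4 libraries, 2 at a mean CPM of at least 5, and 0 under DESeq2 and on that table. The causes of these shifts were not tested.

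Related-list genes called lower with romidepsin numbered 39, or 18 with 4 libraries; those higher with quisinostat 17, or 29 under library size alone; those higher and lower with mivebresib 31 and 34, or 20 and 21 with 4 libraries.

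Leaving out each library in turn, members higher and lower ranged from 0 to 2 and 2 to 4 with romidepsin, 1 to 3 and 2 to 4 with quisinostat, 0 to 2 and 1 to 2 for quisinostat against romidepsin, 3 to 5 and 0 to 2 for mivebresib against romidepsin, and 2 to 5 and 0 to 3 for mivebresib against quisinostat. Related-list genes ranged from 6 to 23 higher and 17 to 51 lower with romidepsin, and from 19 to 36 higher and 21 to 36 lower with mivebresib. Single-list counts moved by over 1.5 times in 174 of 1056 refits, mostly counts of a few genes.

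Sign changes concerned only members that were not called. MXI1 with romidepsin was 0.030 under library size alone, 0.042 under upper-quartile factors and 0.017 at a mean CPM of at least 5, and MXI1 with mivebresib -0.0016 with no filter. MGA with romidepsin was 0.0050 under upper-quartile factors. For quisinostat against romidepsin, MYCL was 0.11 and MAX 0.083 under library size alone and 0.025 and 0.00056 under upper-quartile factors. For mivebresib against romidepsin, MXI1 was -0.0016 and MGA -0.039 under library size alone, and MGA -0.0062 under DESeq2, -0.027 under upper-quartile factors, -0.019 at a mean CPM of at least 5 and -0.0060 with 4 libraries. For mivebresib against quisinostat, MNT was -0.029 under library size alone. Over the leave-one-out fits with romidepsin, MXI1 ran from -0.16 to 0.12 and MGA from -0.25 to 0.13; with quisinostat, MAX from -0.0023 to 0.31; with mivebresib, MYCN from -0.23 to 0.38, MAX from -0.26 to 0.051, MXI1 from -0.11 to 0.14 and MGA from -0.27 to 0.14. For quisinostat against romidepsin, MYCN ran from -0.012 to 0.16, MYCL from -0.21 to 0.16 and MAX from -0.15 to 0.0059; for mivebresib against romidepsin, MXI1 from -0.046 to 0.14, MNT from -0.061 to 0.046 and MGA from -0.19 to 0.18.

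Replicate numbers did not pair the wells: same-numbered libraries of different groups deviated together with r from -0.162 to 0.158. With the number added as a replicate block, members higher with romidepsin went from 1 to 0 (MYC, adjusted p = 0.0507), those higher for quisinostat against romidepsin from 1 to 2 and those lower for mivebresib against romidepsin from 1 to 2, and MGA in the latter was -0.0064. A prior count of 0.5 moved no correlation by more than 0.01.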
